A study of Rattus norvegicus with 6 samples.

Results

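The regions described here are stretches of the rat autosomes other than chromosome 13. In every library of the study, windows of 501 fragments centred in them were contacted by a promoter on chromosome 13 more often than their chromosome's average. The score belongs to the window, so a stretch can itself hold few or no captured fragments. These stretches are called trans domains, since they lie on other chromosomes than the promoter. The members were chosen by the measured values: a restriction fragment was a member where its score was 5 or more in all 6 libraries. Of 712487 fragments on 19 chromosomes, 4266 were members, or 0.599%, and adjacent members formed 113 domains. Chromosome X, which lay outside the rule, had 0 of 47503 fragments at 5 or more in all libraries, and the highest value that its lowest library reached was 2.33.

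The study mapped contacts of 1 gene promoter by 4C-seq in cultured cardiac endothelial cells of rats at passage 2, fixed with 2% formaldehyde for 10 min. The tested strain was SS-13BN/Mcwi, called SS13BN, a consomic rat that carries the Brown Norway chromosome 13 on the background of the Dahl salt-sensitive rat, and it gave 3 libraries. The strain it was set against was SS/JrHsdMcwi, called SS, the Dahl salt-sensitive rat itself, and it also gave 3 libraries. Cells of male and female animals were pooled in both strains, and the trans domains lie on chromosomes that a chromosome 13 consomic shares with SS. Nothing in the labels ties a library to its own animals or culture, and p-values therefore rest on a spread between libraries that may be technical only.

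In 4C-seq, chromatin is fixed and cut, here with EcoRI, neighbouring ends are ligated, and the pieces joined to 1 chosen viewpoint are amplified and sequenced. Chromosomes occupy territories of their own in the interphase nucleus, so a promoter's contacts are mostly with its own chromosome. Contacts with other chromosomes are sparse and broad, and in mammalian cells active, gene-rich chromatin of different chromosomes tends to meet in shared nuclear space. They are therefore read over wide windows of many fragments rather than at single sites.

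The deposited score of a fragment was a z-score over a running window of 501 fragments, the fragment itself and 250 on each side. It compared the number of captured fragments in the window with the captured share of the whole chromosome in that library. Each fragment counted as captured or not, and how many reads this took cannot be told from the scores. Fragments beyond a chromosome's end counted as not captured, which lowers scores near the ends. Captured fragments outside chromosome 13 numbered 66610 to 132426 of 759990 per library. Depth enters the score: 5 needs a window capture of 1.48 times the share of all these chromosomes in SS13BN 2, the deepest library, and 1.71 times in SS13BN 3, the shallowest. Both libraries numbered 3 were listed at 0 throughout chromosome 13, the viewpoint's own chromosome. They are therefore set apart below where a result rests on them.

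The 113 domains were mostly short pieces of a smaller number of broad regions. Their median length was 42.4 kb, the shortest was 0.042 kb and the longest 4860 kb, and they covered 19.9 Mb in all. That was 0.797% of the 2495 Mb examined, which leaves out 13 table rows of over 0.3 Mb (134 Mb in all) that the tables list as 1 fragment each; none was a member or lay in a member's window. A single fragment made up 21 domains, 38 had 2 to 9 fragments, 41 had 10 to 99 and 13 had 100 or more. Those 13 held 2832 of the members, or 66.4%. Of 99 gaps between neighbouring domains on a chromosome, the median was 44.2 kb and 86 were under 1 Mb. In 87 gaps there were fewer than 501 fragments, so that the windows on either side shared fragments and the domains were not separate observations. Joining domains under 1 Mb apart gave 27 groups, of which 21 held several domains and the fullest held 15. The groups spanned 2.58 to 7426 kb, with a median of 576 kb. Where groups shared a chromosome, the 13 gaps between them ran from 1.42 to 127 Mb with a median of 13.2 Mb. The longest, on chromosome 4, includes 1 such row of 65.2 Mb.

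The breaks inside groups were shallow and mostly concerned 1 library. Of 1995 fragments in such breaks, 1657, or 83.1%, fell under 5 in a single library, and the median of the lowest score was 4.71. SS13BN 3 alone was under 5 in 41.0% of them and SS 3 alone in 23.7%, while SS13BN 2 was under 5 in 0. The number of domains thus counts places where mostly 1 profile crossed the threshold, and the 27 groups are used below where a region as a whole is meant.

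Chromosome 1 carried more member fragments than the other chromosomes together, though not more domains or groups. It held 43 domains in 8 groups and 2381 member fragments, 55.8% of the members against 11.7% of all fragments. All 43 started beyond 160 Mb of a chromosome of 290 Mb. Chromosome 4 followed with 362 members, chromosome 8 with 333, chromosome 9 with 261, chromosome 7 with 230 and chromosome 3 with 223. Chromosome 17 had 145, and chromosomes 20, 19, 11, 14, 10, 12 and 16 had 6 to 91 each. Chromosomes 2, 5, 6, 15 and 18 had none. There the highest value that the lowest library reached was 4.83 on chromosome 6, 4.68 on chromosome 15, 4.60 on chromosome 5, 4.04 on chromosome 2 and 3.73 on chromosome 18. Chromosome 2, with 11.4% of all fragments, is nearly as long as chromosome 1 and reached none. On position, 3 groups ended within 10 Mb of the highest coordinate of their chromosome and 0 within 3 Mb, and 1 group started within 10 Mb of the chromosome start. The zeros counted beyond an end bear only on the scores of the 250 fragments nearest to it.

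**Figure D1:**
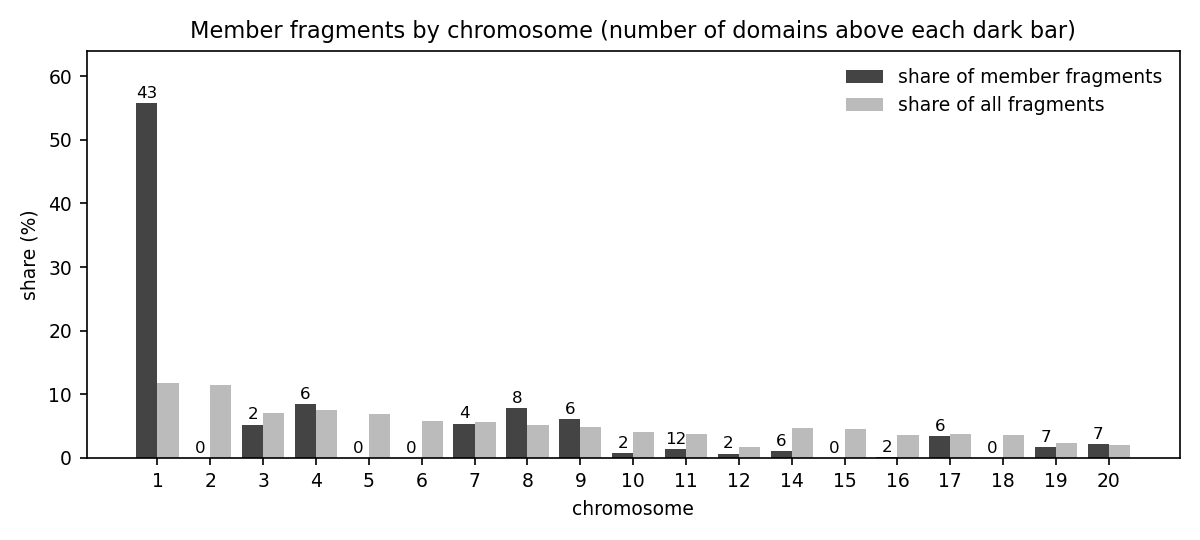
Each chromosome's share of the 4266 member fragments (dark bars) and of all 712487 fragments (light bars), in percent, with the number of domains above each dark bar. Chromosome 1 holds 55.8% of members, and chromosomes 2, 5, 6, 15 and 18 hold none.

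The longest domain and the highest score of any lowest library lay in the same place, rn5 chromosome 1 from 221910907 to 226770417. This domain had 974 fragments. At its peak, the fragment from 223853425 to 223853495, the scores were 10.8, 12.4 and 9.41 in SS13BN 1 to 3, against 9.25, 9.88 and 9.19 in SS 1 to 3. The window there, of 2.60 Mb, held 122, 192 and 105 captured fragments of 501 in SS13BN and 131, 117 and 129 in SS. Relative to the chromosome's share this was 2.33 ± 0.126 in SS13BN and 2.17 ± 0.130 in SS (SD, n = 3 each). All libraries, including both numbered 3, stood far above the threshold, and the strains overlapped.

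The domain belonged to a group of 10 that ran from 221691361 to 229117526 and held 1399 members, 32.8% of all. Around the peak, each library's own unbroken stretch at 5 or more was 7550, 8304 and 6044 kb long in SS13BN 1 to 3, against 8308, 8265 and 4860 kb in SS 1 to 3. Libraries placed their summits up to 4961 kb apart within the group, so that it was a broad plateau without a common summit. The third ranked domain, from 227781668 to 229117526, lay at its upper edge, with 7.37, 9.88 and 7.22 at the peak in SS13BN and 10.6, 11.7 and 7.28 in SS. The sixth ranked domain, from 226864769 to 227369493, was of another make. Its peak scores were 9.01, 7.17 and 6.75 in SS13BN and 8.43, 10.9 and 7.14 in SS, but only 28 of its 121 fragments were captured in any library. Inside the domain, 6, 17 and 9 were captured in SS13BN and 11, 7 and 11 in SS, so its score rested mostly on captured fragments outside it but within its window. Other domains shorter than a window also drew on captures outside them. Fewer fragments were captured here than in the fifth ranked domain, of similar size, where 74 of 123 were captured in any library.

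Farther along chromosome 1, 2 compact domains stood each as a group of its own. The fourth ranked ran from 263661510 to 264460331 with 213 fragments. Its peak scores were 8.71, 8.47 and 7.06 in SS13BN 1 to 3, against 8.97, 7.06 and 9.59 in SS 1 to 3. The fifth ranked ran from 268324194 to 268858734 with 123 fragments, at 7.37, 6.82 and 7.37 in SS13BN and 7.08, 9.73 and 7.96 in SS. In this domain the 6 summits lay within 40.0 kb of each other, and in the fourth within 160 kb. Summits were sought only inside each group, so these ranges could not exceed the spans of 535 and 799 kb. Within reach of the windows, both had long runs of fragments that no library captured. One of 90 fragments, from 265049248 to 265367119, lay above the fourth ranked domain, and 1 of 58 fragments, from 269666746 to 269911763, above the fifth. Over all groups the longest such run had a median of 12 fragments and a lowest value of 6. Whether these fragments can take unique reads was not tested.

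A further group on chromosome 1, from 271050952 to 274173007, was the most broken, with 15 domains and 429 members. At its peak the scores were 8.41, 12.4 and 5.81 in SS13BN and 8.03, 12.6 and 8.91 in SS. SS13BN 3 stood apart: its stretch at 5 or more around the peak was 616 kb, whereas the other libraries had 3309 to 3755 kb. The group includes the longest domain without a captured fragment in any library, 19 fragments from 272981564 to 273082743, and 11 of the 113 domains were empty in this sense. The other groups of chromosome 1 began at 169711913, 183966066, 217754770 and 284102693, with lowest-library scores at the peak of 5.50, 5.03, 5.43 and 5.42. That at 183966066 was 1 fragment.

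On chromosome 4, the second ranked domain ran from 186536667 to 187461212 with 199 fragments. Its peak scores were 7.64, 7.28 and 8.87 in SS13BN 1 to 3, against 7.48, 7.34 and 8.00 in SS 1 to 3. Relative to the chromosome's share the window capture was 2.00 ± 0.273 in SS13BN and 1.95 ± 0.0509 in SS (SD, n = 3 each). The libraries were thus close together in SS but not in SS13BN. The lowest library here was SS13BN 2, not 1 of those numbered 3. Among the fragments of the group, 4 of the 6 libraries placed their summit at the same one, which starts at 186995805. The other group on chromosome 4, from 58707536 to 59283471, was 1 domain of 151 fragments, with peak scores of 7.79, 6.22 and 7.32 in SS13BN and 6.94, 7.04 and 5.93 in SS.

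Chromosomes 9, 3 and 8 gave the rest of the leading 10. The seventh ranked domain, on chromosome 9 from 96466692 to 97127664, had peak scores of 8.03, 8.02 and 6.53 in SS13BN and 6.63, 8.69 and 7.09 in SS. The eighth, on chromosome 3 from 12262004 to 13162740, had 9.77, 7.74 and 6.19 in SS13BN and 9.36, 8.10 and 6.32 in SS. The ninth and the tenth were both on chromosome 8, in 1 group and with equal lowest scores of 6.01. That from 47075378 to 47559166 had 9.09, 10.4 and 6.01 in SS13BN and 8.23, 8.85 and 6.21 in SS. That from 48504060 to 48959483 had 9.51, 9.53 and 6.01 in SS13BN and 10.3, 7.84 and 6.61 in SS. In the 3 domains of chromosomes 3 and 8, the libraries numbered 3 were the lowest of both strains.

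The longest domains of the other chromosomes had a lowest library that stood nearer the threshold, at 5.97 on chromosome 7 and below that on the rest. On chromosome 7, 134 fragments from 121166636 to 121844699 reached 2.08 ± 0.238 times the chromosome's share at the peak (SD, n = 6). On chromosome 17, 66 fragments from 10516658 to 10838584 reached 1.92 ± 0.138 times, and on chromosome 19, 44 fragments from 64680513 to 64998366 reached 1.77 ± 0.141 times. On chromosome 12, 28 fragments from 42629784 to 42722518 reached 1.81 ± 0.0573 times, the smallest spread among these. Chromosome 14 had 17 fragments from 81978096 to 82024486, chromosome 10 had 14 from 14617494 to 14692290 and chromosome 11 had 12 from 36023419 to 36088464. Chromosome 16 had 2 fragments, from 7119607 to 7136490, with a lowest score of 5.07. The second groups of chromosomes 14, 17, 19, 20 and 8, at 78514890, 31743179, 66447521, 13663122 and 63173943, peaked at 5.07, 5.43, 5.23, 5.17 and 5.01 in their lowest library.

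The longest domain of chromosome 20, from 32090521 to 32378804, had 56 fragments and belonged to a group of 5 with very high scores in 4 libraries. Its peak scores were 14.6, 13.3 and 5.48 in SS13BN 1 to 3, against 16.0, 10.7 and 6.64 in SS 1 to 3. The 2 libraries numbered 3 were thus far below the others, and strain means did not separate, at 11.1 ± 4.92 in SS13BN and 11.1 ± 4.69 in SS (SD, n = 3 each). The neighbouring domain of 1 fragment, from 31991632 to 32003850, was higher still in 4 libraries, with 15.4, 14.9 and 5.01 in SS13BN and 16.5, 11.5 and 6.23 in SS, and it was singled out after its values were seen. The densest 51 fragments of the group, from 32076906 to 32324658, had 34, 38 and 21 captured in SS13BN and 35, 24 and 19 in SS. No other group had more than 29 captured in its densest 51 fragments in any library, and the lowest count over all groups and libraries was 8.

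**Figure D2:**
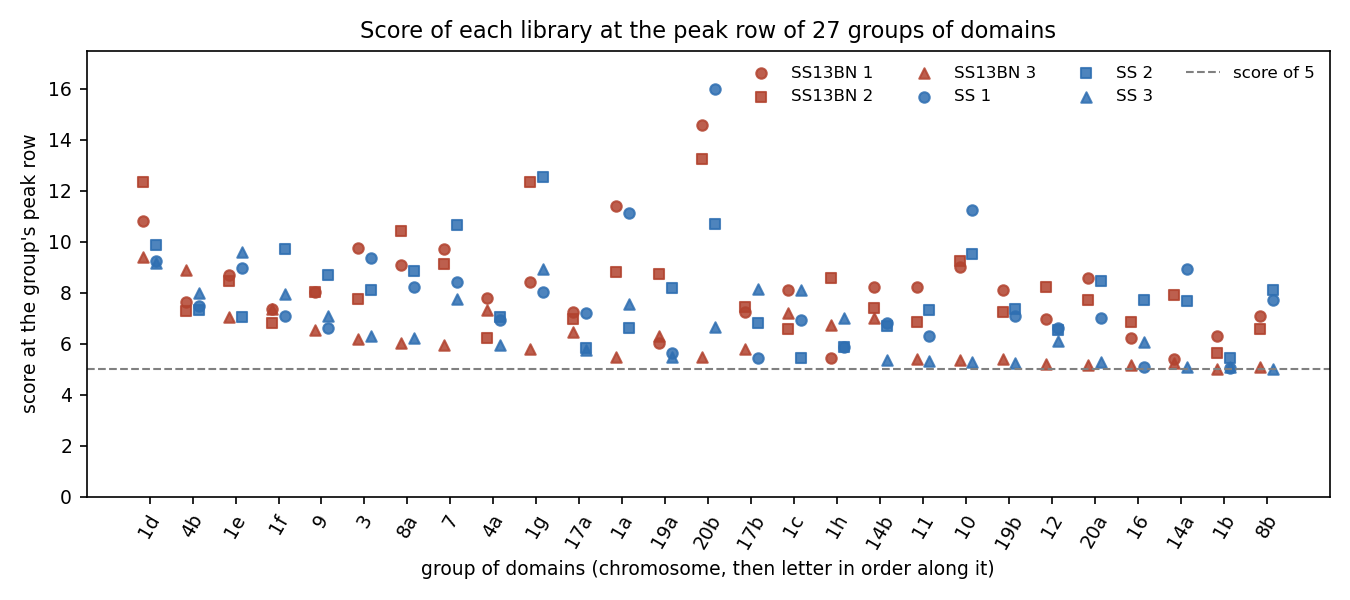
Score of each library (points, coloured by strain and shaped by replicate number) at the peak row of each of the 27 groups of domains, ordered from left to right by the score of the lowest library; the dashed line is the threshold of 5. Labels give the chromosome and, where it holds several groups, a letter in order along it. The lowest library is SS13BN 3 or SS 3 in 21 of 27 groups.

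The threshold has no natural break beside it. Member fragments with a lowest score of 5 to 5.1 numbered 538, with a median of 5.03, and fragments at 4.9 to 5 numbered 468, with a median of 4.97. The domains just inside were on chromosome 8, from 46112778 to 46132476 and from 63173943 to 63176519, both with a lowest score of 5.01 in SS 3. Just outside was a stretch of 110 fragments at 4 or more on chromosome 17, from 14620892 to 15099325, which peaked at 5.00 in SS 2, below the threshold before rounding. Another, on chromosome 14 from 83787247 to 84819459, reached 11.5 in SS13BN 2 and 14.1 in SS 2, and SS 3, at 4.93, was the only library under 5.

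Libraries numbered 3 decided most memberships. SS13BN 3 was the lowest library in 53.8% of member fragments and SS 3 in 24.8%, and 1 of them was the lowest at the peak of 91 of 113 domains. SS13BN 3 had 1.65% of all fragments at 5 or more and SS 3 had 2.57%. SS13BN 1 had 5.43%, SS13BN 2 had 6.78%, SS 1 had 4.96% and SS 2 had 4.70%. Without both libraries numbered 3, the rule gave 15429 members in 206 domains and 58 groups, on all 19 chromosomes, and these included all 4266 members. SS13BN 3 had the fewest captured fragments of the 6, whereas SS 3 had more than SS13BN 1 and SS 2. Measured as window capture over the chromosome's share, the lowest library was SS13BN 2 in 38.9% of members, SS 3 in 28.8% and SS13BN 3 in 19.4%. The rule sets this order in part, since a score of 5 needs less relative capture in a deeper library. Against the share of all these chromosomes, a score of 5 needs 1.48 times in SS13BN 2 and 1.71 times in SS13BN 3. Against their own chromosome's share, members' windows went down to 1.49 and 1.64 times in these libraries.

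Fragments chosen in 5 libraries were mostly high in the sixth too, which had no part in that choice, with the lowest shares in the 2 libraries numbered 3. Of 4661 fragments at 5 or more in the 5 other libraries, 91.5% were at 5 or more in SS13BN 1, against 5.43% of all fragments. The share was 98.5% of 4330 in SS13BN 2 and 56.4% of 7569 in SS13BN 3, against 6.78% and 1.65% of all fragments. It was 94.9% of 4495 in SS 1, 76.2% of 5595 in SS 2 and 69.0% of 6187 in SS 3. Against these stood 4.96%, 4.70% and 2.57% of all fragments in SS 1 to 3. The left-out library's median score over these fragments was 8.05 in SS13BN 1, 8.47 in SS13BN 2, 5.17 in SS13BN 3, 7.89 in SS 1, 7.27 in SS 2 and 6.12 in SS 3. Over all fragments the medians lay between -0.376 and -0.0894. The lowest score that any left-out library gave was 1.28, in SS13BN 3, so no such fragment fell to its chromosome's average. Neighbouring fragments share nearly all of their window, so these shares describe 27 to 37 groups of domains and not as many regions as fragments. Counted by group, 27 of 28 held a fragment at 5 or more in SS13BN 1, 27 of 27 in SS13BN 2 and 27 of 37 in SS13BN 3. In SS 1 it was 27 of 27, in SS 2 it was 27 of 30 and in SS 3 it was 26 of 31. A like count for other regions of these chromosomes is not given here.

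The same held from strain to strain. Fragments at 5 or more in the 3 SS libraries numbered 8606, and of these 89.6% were at 5 or more in SS13BN 1, 97.5% in SS13BN 2 and 55.3% in SS13BN 3. Fragments at 5 or more in the 3 SS13BN libraries numbered 8460, and of these 96.3% were so in SS 1, 76.0% in SS 2 and 69.5% in SS 3. The shares over all fragments were 5.43%, 6.78% and 1.65% in SS13BN 1 to 3, and 4.96%, 4.70% and 2.57% in SS 1 to 3. All fragments of both lists scored above 0 in every library of the other strain. The 4266 members were 50.4% of the SS13BN list and 49.6% of the SS list.

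Within the members, 21.4%, 33.4% and 17.0% of fragments were captured in SS13BN 1 to 3, against 24.7%, 21.9% and 21.7% in SS 1 to 3. The 95% Wilson intervals were 20.2% to 22.7%, 32.0% to 34.9% and 15.9% to 18.2% in SS13BN, and 23.4% to 26.0%, 20.7% to 23.2% and 20.5% to 23.0% in SS. These intervals treat member fragments as independent, although the fragments lie in 27 groups and were chosen for high capture. They cover counting error only, and not the spread between regions. Elsewhere on these chromosomes the shares were 10.0%, 17.6% and 8.85% in SS13BN and 12.5%, 10.1% and 12.0% in SS. The ratio of members to the rest was 1.98 ± 0.128 in SS13BN and 1.99 ± 0.185 in SS (SD, n = 3 each), values that the rule fixed in part. Despite this, 42.6% of member fragments were captured in no library, against 62.7% of others, and 4.27% in all 6, against 1.52% of others. Members took 1.18% ± 0.0753 of captured fragments in SS13BN and 1.18% ± 0.109 in SS (SD, n = 3 each), and they were 0.599% of fragments.

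Capture stayed raised beyond the fragments that the members' windows hold. Fragments 251 to 500 away from a group lie in no member's window, and they were captured at 1.19 ± 0.0555 times their chromosome's share (SD, n = 6). At 501 to 1000 fragments the value was 1.21 ± 0.0287, at 1001 to 2000 it was 1.04 ± 0.0134 and at 2001 to 4000 it was 0.953 ± 0.0150. Beyond 4000 fragments it was 0.961 ± 0.00500. In each of the 6 libraries the values at 251 to 500 and at 501 to 1000 were above that beyond 4000, with a lowest library of 1.11 and 1.18. The length of the fragments alone gave 1.03 at both distances, from the capture of fragments of like length on all these chromosomes. With all groups pooled, a milder mean excess thus reached at least 1000 fragments from the groups. A smaller one remained at 1001 to 2000 fragments, where the libraries ran from 1.02 to 1.05, against 0.955 to 0.966 beyond 4000. Whether the excess surrounded each group was not tested. Groups ended where the lowest library fell under the threshold, so these distances can include fragments above the threshold in other libraries.

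**Figure D3:**
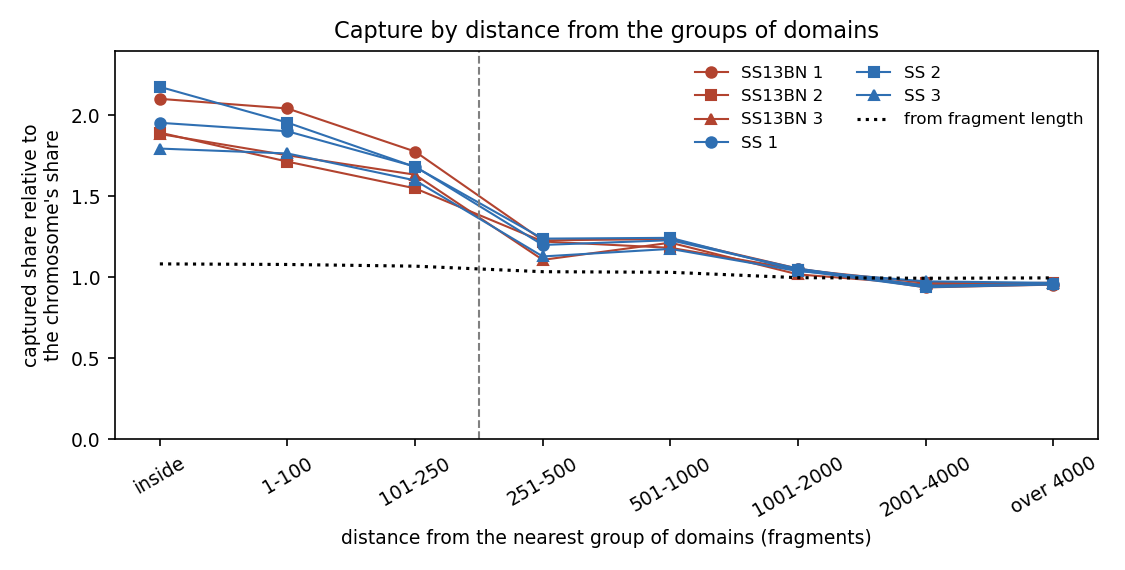
Captured share relative to the chromosome's share (y axis) by distance in fragments from the nearest group of domains (x axis), 1 line per library, with the level given by fragment length as a dotted line. Fragments left of the dashed line lie in windows that chose the members; right of it, all 6 libraries stay at 1.11 or more to 1000 fragments and fall below 1 past 2000.

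Members were longer restriction fragments than the rest. The rule did not use length itself, but its background made no allowance for it, and the longest fragments were captured more often than the shortest. The difference in length is therefore not independent of how the members were chosen. The median length of members was 3136 bp, with quartiles of 1224 and 6510 bp, against 2201 bp, with quartiles of 809 and 4704 bp, for the other fragments. In 23 of 27 groups the median was above that of the chromosome. On chromosome 1 the medians were 3192 bp in members and 2078 bp elsewhere. EcoRI fragments were accordingly sparser in the domains, at 215 per Mb, against 286 per Mb elsewhere without the rows of over 0.3 Mb.

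Capture was higher in the longest than in the shortest fragments, in members and in others. That members were captured more often than others was fixed by the rule, so the values by length are a description. Fragments were split into 10 length classes of nearly equal size. In the shortest, up to 216 bp, capture was 10.5% ± 2.75 in members and 5.23% ± 0.899 in others, and in the longest, from 8351 bp, it was 33.3% ± 5.35 in members and 16.6% ± 3.82 in others (SD, n = 6 each). The ratio of members to others averaged 1.63 to 2.19 over the classes, and its lowest value in any library and class was 1.28. From length alone the members' capture would be 1.09 ± 0.00987 times the level of all fragments, and the observed capture was 1.82 ± 0.140 times that expectation (SD, n = 6). With the background set by fragment length, 36 domains in 10 groups remained, and 9 of the 27 groups kept a member. These 9 lay on chromosomes 1, 4, 8, 9 and 17 and included the leading domain, whose group then peaked at 7.48 in its lowest library. The chromosome 20 group at 32 Mb fell to 4.55.

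**Figure D4:**
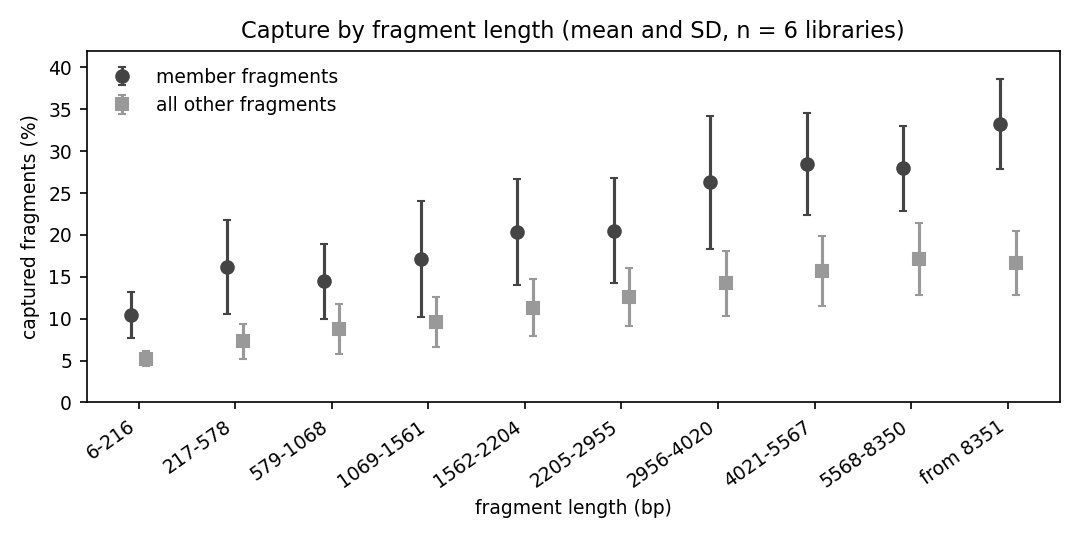
Percentage of fragments captured (y axis) in 10 classes of fragment length (x axis, bp) for members (circles) and all other fragments of the same chromosomes (squares), mean and SD over 6 libraries. The values are 10.5% in members and 5.23% in others in the shortest class, and 33.3% in members and 16.6% in others in the longest; members were chosen for high capture.

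No window of the domains passed the test of a difference between the strains. Captured fragments were counted in 5296 windows of 500 kb, scaled to the mean library total, and compared with limma on log2(value + 1), a scale on which folds of low values are understated. The rule asks for high scores in both strains, so it leaves out windows high in 1 strain alone, and 82 windows held members. Of these, 0 passed an adjusted p of 0.05 with limma, as did 0 of all windows (0%), and the smallest adjusted p was 0.999 in both. An unadjusted p under 0.05 was found in 2 of the 82 and in 3.02% of all windows. All SS13BN libraries lay above all SS libraries in 2, against 4.25% of all windows, and below them in 1, against 3.55%. The log2 difference (SS13BN minus SS) ran from -0.50 to 0.42, with a median of -0.02, and the median over all windows was -0.00446. The median half-width of its 95% interval was 0.44, without adjustment for the number of windows. The test asks for an adjusted p, so changes larger than that could also have passed unseen in a typical window.

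The 3 member windows with the smallest p were all on chromosome 1, and all were lower in SS13BN. That from 228000001 to 228500000, inside the third ranked domain, had 20, 35 and 18 of 92 fragments captured in SS13BN 1 to 3, against 42, 27 and 31 in SS 1 to 3. Scaled to library size these were 23.8 ± 0.282 in SS13BN and 34.0 ± 5.09 in SS (SD, n = 3 each), with no overlap between the strains. The log2 difference was -0.49 (SE 0.20), with a limma adjusted p of 0.999. The window from 273000001 to 273500000 had a log2 difference of -0.50 (SE 0.24) at the same adjusted p. There the SS13BN libraries were spread, at 11.8, 24.2 and 13.4 scaled fragments, against 24.7, 23.5 and 19.7 in SS. The window from 264000001 to 264500000 had a difference of -0.34 (SE 0.20) at the same adjusted p, and 1 Mb windows turned its sign.

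The only other windows without overlap were 1 in the leading domain, from 223000001 to 223500000, and 1 on chromosome 14, from 82000001 to 82500000. These were singled out after their values were seen. The first had 24.8, 18.8 and 20.1 scaled captured fragments in SS13BN against 18.0, 14.1 and 16.8 in SS, a log2 difference of 0.36 (SE 0.23). The second had 20.1, 20.2 and 24.1 in SS13BN against 19.9, 19.9 and 15.8 in SS, a difference of 0.20 (SE 0.22), and both had a limma adjusted p of 0.999. Differences inside the leading group of chromosome 1 thus ran both ways, and none passed the test.

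**Figure D5:**
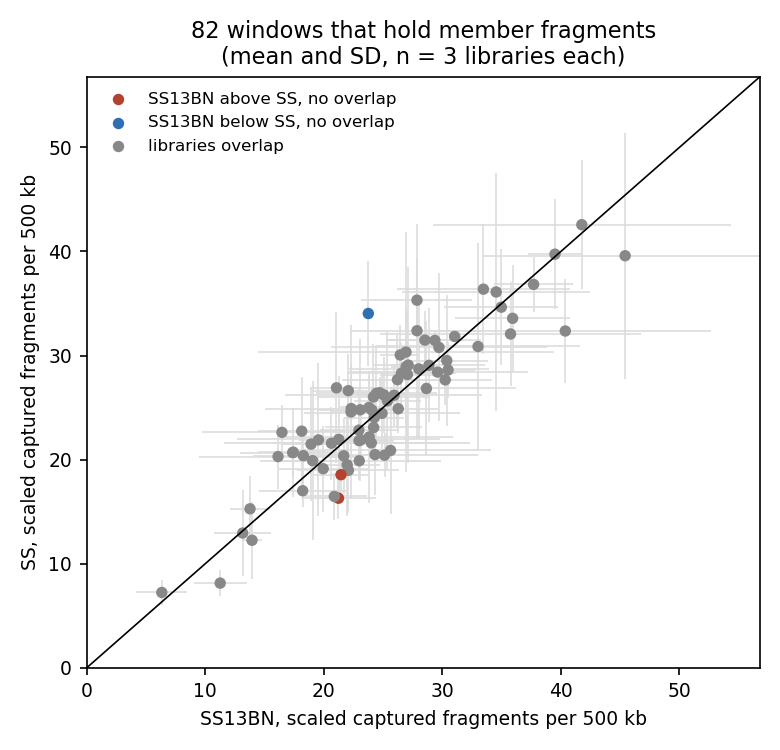
Scaled captured fragments per 500 kb in SS13BN (x axis) and SS (y axis) for the 82 windows that hold member fragments, mean and SD of 3 libraries each, with the line of equality. Without overlap of the libraries, 2 windows lie higher and 1 lower in SS13BN, and 0 pass the limma test.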

How the data were processed

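Each deposited table lists a score for every EcoRI fragment of 1 library, a z-score whose form was worked out from the values. The submitters' processing notes name CASAVA 1.8 and build rn5; the program that made the scores is not given in the sources used here. Coordinates are printed as the tables give them, closed and starting at 0. Solving the scores as (k - Wp) / square root of Wp(1 - p), with W = 501, gave each fragment's captured state. The states rebuilt 100% of windows outside chromosome 13 within 1e-05 of whole numbers. State recovery and the strain test were tested on simulated data. The simulation for the strain test held counting error only, with no other spread between libraries. It therefore does not show what size of change the test can find in these data.

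The strain test used limma 3.58.1 in R 4.3.3 (lmFit, eBayes with trend, pseudocount 1, windows with a mean of at least 1 captured fragment, Benjamini-Hochberg adjustment). Other steps used Python 3.11.15, numpy 2.4.6 and pandas 2.3.3. Named were the 10 domains with the highest lowest-library score, the longest of each chromosome, those beside the threshold, and the 3 member windows with the smallest p. Members, lists and tests were chosen with earlier results of these data known. Gene annotation of rn5 was not used here. Alternatives were other thresholds, windows, backgrounds, scalings and left-out libraries.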

Additional observations from a re-analysis of the deposited data

How the results depend on the processing

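The number of domains, 113, depended on the rule. It was 214 at a score of 4, 13 at 6, 27 with domains under 1 Mb apart merged and 54 without domains under 10 fragments. It was 46 with windows of 251 fragments, 171 with the library's share as background, 36 with a background set by fragment length and 206 without both libraries numbered 3. A window capture of at least 1.7 times the chromosome's share gave 78; this and the previous setting were chosen after seeing the data. Leaving out 1 library, which can only keep or add members, gave 115 to 138 domains. The median member length of 3136 bp was 3001 at a score of 4, 3218 at 6, 3257 at 1.7 times the share and 2998 without both libraries numbered 3, and 3028 to 3136 with 1 library left out. In limma, 0 windows passed under all 14 alternatives. The smallest limma adjusted p over all windows was 0.999 in the main setting and 0.210 without both libraries numbered 3. An unadjusted p under 0.05 was found in 369 of 10424 windows of 250 kb and in 75 of 2666 of 1 Mb. The median log2 difference over member windows ran from -0.06 to 0.04, within the spread between libraries of 0.09. The window of chromosome 1 at 264000001 turned to 0.014 with 1 Mb windows. Samples of the same number correlated at 0.0875, 0.130 and 0.0834 in their deviations over all windows and at 0.367, 0.175 and 0.362 over the member windows, each best with its own number, a hint from the data, since the labels give no pairing. With replicate number as a block, 0 windows passed and 203 had an unadjusted p under 0.05, against 160 without it. Capture counts of 66610 to 132426 per library limit how small a trans excess can be seen.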
